A study of Homo sapiens with 11 samples.

Results

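SK-N-BE(2)-C cells that had received only the solvent were compared after 6 d (144 h) and after 24 h of culture. SK-N-BE(2)-C is a neuroblastoma cell line with an amplified MYCN gene, and the solvent was dimethyl sulfoxide (DMSO), which also carried the drug in the other arm of the study. RNA was hybridised to BeadChips of the Illumina HT-12 v4 type, on which beads carry probes for human transcripts. The members of the comparison were 3 arrays titled as DMSO at 24 h and 3 titled as DMSO at 6 d, which are 6 of the 11 arrays of the series. The other 5 arrays came from cells given 500 nM vorinostat, an inhibitor of histone deacetylases, for 24 h (3 arrays) or 6 d (2 arrays). All cultures were of 1 line, grown in medium with fetal calf serum. The study's methods speak of separate experiments for the 24 h treatment and do not describe the 6 d cultures. Whether the medium was renewed within the 6 d is not given in the sources used here. Where replicates were not separate cultures, the p-values measure only the spread between these arrays.

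Cells kept in a dish draw down glucose, amino acids and growth factors and become crowded. Sensors of amino acid supply raise the translation of the transcription factor ATF4, which turns on genes for amino acid synthesis and uptake. Glucose is read by other factors, whose best known target is TXNIP, and cells that leave the cell cycle lower the genes of DNA replication, which E2F factors control. Neuroblastoma cells carry the program of sympathetic neurons, with enzymes that make noradrenaline, and can shift towards a mesenchymal state in which matrix genes are expressed. This is background and was not measured as a cause of the values below.

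The solvent arrays at 24 h lay on 1 BeadChip and those at 6 d on another, together with the vorinostat arrays of 6 d. Time and BeadChip therefore cannot be told apart in the solvent cultures. The vorinostat arrays of 24 h lay on a BeadChip of their own. The solvent arrays also differed in brightness. Mean intensity before normalization was 272 to 302 at 24 h and 323 to 383 at 6 d, and 15947 to 16878 probes were detected at 24 h against 17444 to 18159 at 6 d. For both measures an exact two-sided permutation test gave p = 0.1, the smallest value that 3 arrays against 3 allow. Within a group, Pearson's r over detected probes was 0.990 to 0.992 at 24 h and 0.986 to 0.992 at 6 d. The number of arrays limits the precision of all values.

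The labels of the 6 d groups need a second look before any direction is read. Over the 9508 genes tested, the difference between vorinostat and solvent at 24 h and the same difference at 6 d, which share no array, had a Pearson's r of -0.49. This r is across genes, which are not independent replicates. At 24 h vorinostat and solvent lay on separate BeadChips, so drug and BeadChip cannot be told apart in that difference. Of 1648 genes higher with vorinostat at 24 h, 20.4% had a positive difference at 6 d, and of 1125 genes lower at 24 h, 79.5% had one. The arrays labelled vorinostat 6 d differed from those labelled DMSO 24 h in few genes, with 112 higher and 67 lower. Brightness ran the same way, with means of 401 to 413 for vorinostat at 24 h and of 283 and 338 for vorinostat at 6 d. The first principal component (39.1% of the variance) also put DMSO 24 h and vorinostat 6 d on one side. The second component (27.8%) put vorinostat 6 d (-7.65 and -5.97) on the side of DMSO 6 d (-16.4 to -10.6), with which it shared a BeadChip. Whether the treatment labels of the 6 d arrays were exchanged was not tested. Titles and treatment labels give the groups alike, so they were kept, and "6 d" below stands for the arrays labelled DMSO 6 d.

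With these labels 1752 genes (18.4% of 9508) were higher at 6 d and 1391 (14.6%) were lower at an adjusted p under 0.05, together 33.1%. The test was limma's moderated test with Benjamini-Hochberg adjustment, on log2 of the intensities that the authors had normalized, with the brightest detected probe of each gene. All differences below are log2 differences, 6 d minus 24 h, with standard errors (SE) from that fit, and a value of 1 is a doubling. Because background was not subtracted, folds of dim genes are understated. Most differences were small, with a median of 0.44 among the higher genes and -0.41 among the lower ones. A difference of at least 1 was reached by 96 higher and 33 lower genes, and one of at least 2 by 9 higher and 0 lower genes. Of 8275 genes detected on all 6 solvent arrays 1397 were higher and 1346 lower. For 42.4% of all genes the arrays of the groups did not overlap. The median of all genes was 0.02. With non-normalized intensities centred on each array's median, which moved the median of all genes to -0.07, the balance turned to 1328 higher and 1774 lower. With array brightness as a covariate, 876 and 630 genes were called.

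**Figure D1:**
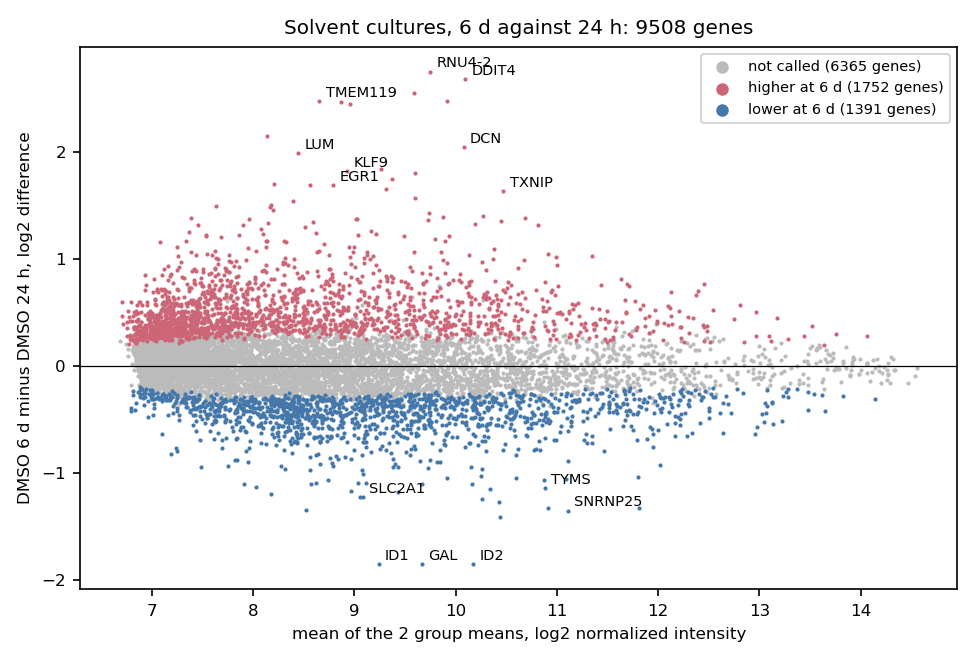
Each point is 1 of the 9508 genes, with its level on the x axis (mean of the group means, log2 normalized intensity) and the log2 difference between DMSO 6 d and DMSO 24 h on the y axis. Red genes (1752) were higher and blue genes (1391) lower at 6 d at an adjusted p under 0.05, and the rises reach 2.75 while the falls reach -1.86.

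Many genes of the ATF4 response were higher at 6 d. Of 28 tested genes on a list of ATF4 targets and amino acid supply genes, 16 were higher and 0 lower, beside 18.4% and 14.6% of all genes. Their median was 0.37, against 0.02 over all genes. Of the 25 detected on all 6 solvent arrays, which did not pass the filter through 6 d alone, 14 were higher. DDIT4, which restrains the growth kinase mTORC1 under stress, had log2 intensities of 8.59, 8.58 and 9.09 at 24 h and of 11.47, 12.01 and 10.83 at 6 d. All 3 arrays of 6 d lay above all 3 of 24 h, and the difference of 2.68 (SE 0.21, adjusted p = 3.4e-07 from limma) was among the largest of all genes. TRIB3, a pseudokinase that dampens ATF4 signalling, read 7.82, 7.47 and 7.57 at 24 h and 8.92, 10.00 and 8.57 at 6 d, a difference of 1.54 (SE 0.24). DDIT3, the stress factor CHOP, rose by 1.46 (SE 0.15), with 7.41 to 7.55 at 24 h and 8.43 to 9.22 at 6 d. For all of these genes the groups did not overlap, as for 42.4% of all genes.

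Within this list, the enzymes and secreted proteins moved with replicate 2 of 6 d as the highest array. ASNS, asparagine synthetase, read 10.56, 10.39 and 10.23 at 24 h and 11.24, 12.27 and 10.79 at 6 d, a difference of 1.04 (SE 0.23, adjusted p = 0.0027 from limma) that was 0.62 without DMSO 6 d replicate 2. Its call was lost in the methods' t-test, also unadjusted. PCK2, the mitochondrial phosphoenolpyruvate carboxykinase, rose by 1.21 (SE 0.21), although of its other probes one rose by 0.50 and one, at -0.06, was not called. STC2, the secreted protein stanniocalcin 2, rose by 1.22 (SE 0.21). ATF5, a factor of the same family as ATF4, read 8.55, 10.04 and 8.07 at 6 d against 7.51 to 8.05 at 24 h, a difference of 1.17 that was 0.59 without DMSO 6 d replicate 2 and lost its call with array brightness as a covariate. CEBPB and CEBPG, partners of ATF4 on DNA, rose by 0.91 and 0.36, and CEBPG lost its call without DMSO 24 h replicate 2 (0.32) or DMSO 6 d replicate 2 (0.26). ATF4 itself, which is mainly controlled at translation, rose by 0.44 (SE 0.09), with another probe at 0.64 and a further one, at 0.09, that was not called. ATF3, another stress factor of the family, was at 0.23 and did not pass the test. With brightness as a covariate 11 of the 28 genes were higher.

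ATF4 binds, with a C/EBP partner, a composite element that can be read as TGATGNAA. Promoter windows of 250 bases before to 50 after a gene's start (RefSeq, GRCh38.p14) were searched for it on both strands, and 25 of the 28 genes had a window. It stood in 3.62% of all 35116 windows, in 2.67% of 7744 tested genes with a window, and in 7 of the 25 genes, of which 2 were among the 16 called. The other genes with a match, ATF3, SLC3A2, SLC7A1, SLC1A5 and JDP2, were not called, so a match did not go with a call. The windows of ASNS and CEBPG are printed here, with 40 bases on either side and the element in capitals. They show where the element lies in genes that rose.
ASNS, chr7:97872429-97872516, minus strand, element beginning 68 bases before the start: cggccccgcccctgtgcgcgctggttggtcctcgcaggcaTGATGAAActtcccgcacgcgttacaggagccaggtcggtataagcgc
CEBPG, chr19:33374031-33374118, plus strand, element beginning 42 bases before the start: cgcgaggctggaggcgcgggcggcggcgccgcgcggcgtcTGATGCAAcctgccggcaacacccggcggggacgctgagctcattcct
A match describes the letters of the window and does not show binding. DDIT4, TRIB3 and DDIT3 rose more without a match in this window.

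Other stress programs were called in both directions. Of 18 cytosolic aminoacyl-tRNA synthetases, which charge tRNAs with amino acids, 7 were higher (38.9%) and 3 lower (16.7%). The shares of all genes were 18.4% and 14.6%. AARS1 was at 0.62 (SE 0.09) and FARSA at -0.60 (SE 0.12). Without DMSO 6 d replicate 2, 3 of the synthetases were higher, and without DMSO 24 h replicate 2, 4. Of 20 genes for folding in the endoplasmic reticulum, 7 were higher (35%) and 3 lower (15%) with a median of 0.07. HSPA5, the chaperone BiP, was at 0.03 (SE 0.09), with 9.26 to 9.38 at 24 h and 9.33 to 9.39 at 6 d. CRELD2, another gene of this compartment, fell by 0.82 (SE 0.12). Each single array of 24 h, when left out, brought the higher count of the folding list to 3 or 4, as did DMSO 6 d replicate 1.

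Of 15 genes of the TXNIP, arrestin and thioredoxin list 2 were higher and 2 lower, a smaller share each way than of all genes. TXNIP, an inhibitor of thioredoxin and of glucose uptake, read 9.64, 9.47 and 9.86 at 24 h and 11.50, 11.45 and 10.92 at 6 d. The groups were far apart, with a difference of 1.63 (SE 0.15, adjusted p = 1.2e-06 from limma). ARRDC4, its closest relative in this response, was at 0.44 and lost its call without DMSO 24 h replicate 1 (0.45), DMSO 24 h replicate 2 (0.37) or DMSO 6 d replicate 1 (0.21). SLC2A1, the glucose transporter GLUT1, read 9.71, 9.62 and 9.76 at 24 h and 8.50, 8.05 and 8.87 at 6 d, and fell by 1.22 (SE 0.15). SLC2A3, the neuronal transporter GLUT3, went the other way, from 7.01 to 7.25 at 24 h to 7.93 to 8.15 at 6 d, a rise of 0.86 (SE 0.11). In 16 glycolysis genes 4 were higher (25%) and 5 lower (31.25%), beside 18.4% and 14.6% of all genes. ALDOC, the aldolase of brain, read 8.72, 8.74 and 8.98 at 24 h and 10.47, 10.30 and 10.38 at 6 d, a rise of 1.57 (SE 0.11), and ENO2, the neuronal enolase, rose by 0.55 (SE 0.09). PKM, pyruvate kinase, fell by 0.42 (SE 0.09). The count of lower glycolysis genes was 1 to 3 when 24 h replicates or 6 d replicates 1 or 2 were left out.

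TXNIP is switched on through paired E-boxes that glucose-sensing factors bind. These were found in 20 of 35116 promoter windows, or 0.0570%, and in 14 of 7744 tested genes. Among the 12 genes of the TXNIP list with a window, TXNIP alone held the element, which is shown in capitals with 40 bases on either side because it is the element that the gene is known for.
TXNIP, chr1:145996611-145996707, minus strand, element beginning 88 bases before the start: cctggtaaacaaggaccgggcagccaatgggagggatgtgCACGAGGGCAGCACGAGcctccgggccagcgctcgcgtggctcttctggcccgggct

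Of 24 genes of the hypoxia response 13 were higher (54.2%) and 3 lower (12.5%), beside 18.4% and 14.6% of all genes. The list's median was 0.29. HIF1A, an oxygen-regulated factor, rose by 0.60 (SE 0.11), from 8.38 to 8.66 at 24 h to 9.06 to 9.12 at 6 d. Its relative EPAS1 was detected on none of the 24 h arrays and was at least 1.78-fold higher at 6 d in the deposited values. STC1, a secreted hormone, rose by 0.80, P4HA2, a collagen prolyl hydroxylase, by 0.77, BNIP3L, a receptor for mitophagy, by 0.72 and BHLHE40, a repressor of the circadian clock, by 0.69. VEGFA, the endothelial growth factor, was at 0.26 and lost its call in 13 of 24 alternatives, among them those without DMSO 24 h replicate 2 (0.25) or 3 (0.24) and without DMSO 6 d replicate 1 (0.26) or 2 (0.22). SLC2A1 was the member with the largest fall. The list's median ranged from 0.09 to 0.61 over the scalings tried, and of the 16 members detected on all 6 solvent arrays 8 were higher.

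Genes for lipid synthesis were higher in part. Of 28 genes for cholesterol and fatty acid synthesis, 12 were higher (42.9%) and 3 lower (10.7%), beside 18.4% and 14.6% of all genes. The list's median was 0.27, and over time with vorinostat it was 0.66. By the test of the difference, the solvent value was higher than the vorinostat value for 3 members and lower for 11. For all genes these counts were 1864 and 1210. The 24 h groups of solvent and vorinostat lay on separate BeadChips. SREBF1, the factor that drives fatty acid synthesis, read 7.37, 7.22 and 7.24 at 24 h and 8.72, 8.70 and 8.52 at 6 d, a difference of 1.37 (SE 0.12, adjusted p = 5.8e-07 from limma), with a second probe at 0.33. ACACA, acetyl-CoA carboxylase, rose by 0.87 and SCD, the stearoyl-CoA desaturase, by 0.76 (SE 0.09). INSIG1, which holds SREBP factors back in the endoplasmic reticulum, rose by 0.97 (SE 0.15). HMGCS1, an early enzyme of the cholesterol pathway, read 11.42, 10.48 and 11.59 at 6 d around 10.63 to 11.02 at 24 h, and its difference of 0.34 did not pass. SC5D, a late enzyme, fell by 0.79 (SE 0.16). For HMGCS1, as for other members, DMSO 6 d replicate 2 was the lowest array, and without it 19 members were higher. The sterol response motif TCACNCCAC stood in 1.13% of all windows and in 1.41% of tested genes with a window. It was in 0 of the 25 genes of this list that had a window.

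**Figure D2:**
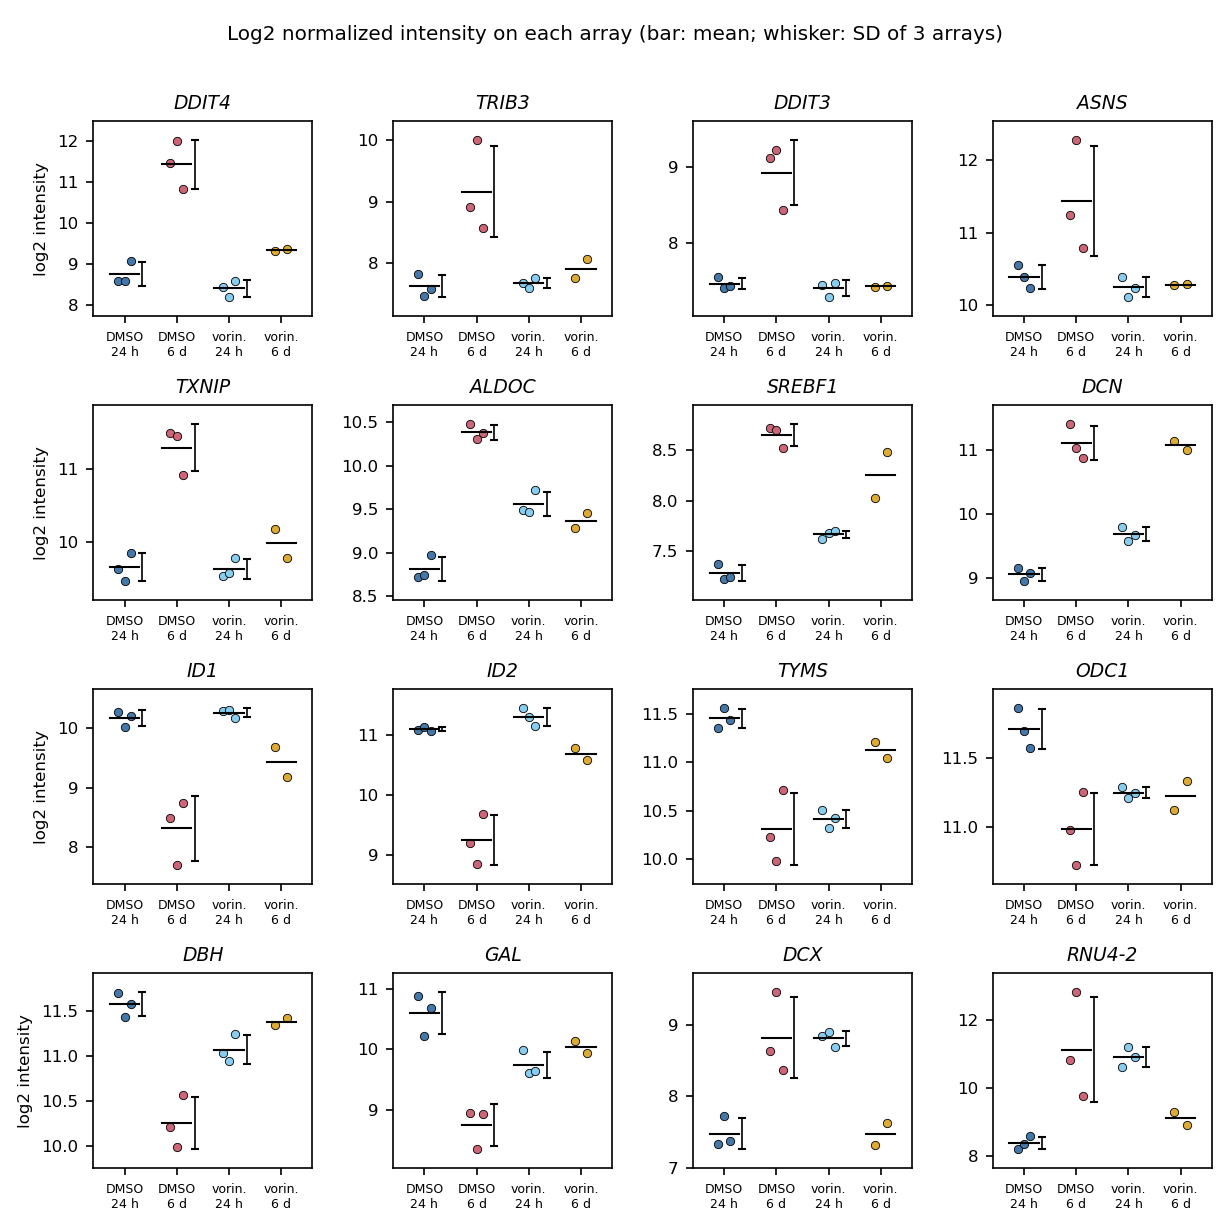
Each point is the log2 normalized intensity of a gene on 1 array, by group on the x axis, with the mean as a bar and the SD of 3 arrays as a whisker. DDIT4 at 6 d with solvent (10.83 to 12.01) lies above all other arrays, while TYMS has means of 10.31 on the DMSO 6 d and 10.42 on the vorinostat 24 h arrays.

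The genes of proliferation went the other way. Of 44 genes of DNA replication and nucleotide supply, 24 were lower (54.5%) and 1 higher (2.27%), with a median of -0.31. Of all genes 14.6% were lower and 18.4% higher. TYMS, thymidylate synthase, read 11.36, 11.55 and 11.44 at 24 h and 10.23, 9.98 and 10.71 at 6 d, and fell by 1.14 (SE 0.14, adjusted p = 1.4e-05 from limma). MCM5, a subunit of the replicative helicase, fell by 0.90, from 10.16 to 10.34 at 24 h to 9.15 to 9.64 at 6 d. RRM2, the regulated subunit of ribonucleotide reductase, fell by 0.84, FEN1, which trims lagging strand fragments, by 0.79, and TK1, thymidine kinase, by 0.68. PCNA, the sliding clamp, fell by 0.42, with 11.88 to 11.97 at 24 h and 11.30 to 11.76 at 6 d. GINS4, a helicase partner, was the only member called higher, at 0.45, and lost its call without DMSO 24 h replicate 2 (0.35). Summed intensity of the list was 70453 to 73937 at 24 h and 54994 to 63700 at 6 d. With array brightness as a covariate 15 members were lower.

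E2F factors bind sites that can be read as TTTNGCGC. This motif, searched on both strands, stood in 1.79% of 35116 windows, in 3.95% of 7744 tested genes and in 17 of 38 replication genes with a window, among them 8 of the 20 that were called. Called and not called members both held it, and it stood in 44.7% of all 38, so a match did not go with a call. Of the called members, windows of POLE2, a subunit of DNA polymerase epsilon (-0.65, SE 0.13), of DUT, which removes dUTP (-0.63, SE 0.11), and of MCM2, another helicase subunit (-0.35, SE 0.11), are shown with the motif in capitals. In MCM2 the next bases form a second match on the other strand that overlaps the first, and in POLE2 a second match begins 5 bases before the start.
POLE2, chr14:49688248-49688335, minus strand, beginning 81 bases before the start: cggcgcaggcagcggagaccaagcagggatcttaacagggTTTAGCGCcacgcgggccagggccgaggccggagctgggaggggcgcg
DUT, chr15:48332130-48332217, plus strand, beginning 27 bases before the start: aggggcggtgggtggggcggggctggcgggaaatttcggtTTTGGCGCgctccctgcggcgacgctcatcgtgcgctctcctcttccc
MCM2, chr3:127598373-127598460, plus strand, beginning 2 bases after the start: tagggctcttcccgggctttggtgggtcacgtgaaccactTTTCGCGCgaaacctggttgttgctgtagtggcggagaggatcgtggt
MCM2 lost its call without DMSO 24 h replicate 1 (-0.37) or 2 (-0.26) and without DMSO 6 d replicate 1 (-0.26) or 2 (-0.34), and a dimmer probe of DUT, at 0.34, was not called.

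Mitotic genes fell less. Of 43 genes of mitosis and chromosome segregation 13 were lower (30.2%) and 1 higher (2.33%), beside 14.6% and 18.4% of all genes. The list's median was -0.23. KIF11, the motor that separates spindle poles, fell by 0.67 (SE 0.11), FOXM1, a factor that drives mitotic genes, by 0.59, and BIRC5, the chromosomal passenger survivin, by 0.57. MKI67, the proliferation marker, read 7.07, 7.47 and 6.95 at 24 h and 6.96, 6.94 and 7.06 at 6 d and was not called. TOP2A, topoisomerase II alpha, was at 0.04 and CDK1, the mitotic kinase, at -0.20, neither of which passed. The difference between the replication and mitosis lists was not tested. CDKN1A, the inhibitor p21, rose by 0.72 (SE 0.16), with 7.18 to 7.40 at 24 h and 7.71 to 8.44 at 6 d, whereas CDKN1B, the inhibitor p27, fell by 0.47 and CCND1, cyclin D1, by 0.56.

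Genes for making ribosomes and for protein turnover were lower too. Of 26 MYC targets and ribosome biogenesis genes 16 were lower (61.5%) and 0 higher, beside 14.6% and 18.4% of all genes. The list's median was -0.37. ODC1, the first enzyme of polyamine synthesis, read 11.86, 11.69 and 11.57 at 24 h and 10.98, 10.72 and 11.25 at 6 d, and fell by 0.72 (SE 0.12). SRM, spermidine synthase, fell by 0.66 and PPAN, which assembles the large subunit, by 0.56. NCL, nucleolin, at -0.14, and FBL, fibrillarin, at 0.07, did not pass. MYCN itself, amplified in this line, read 14.26, 14.41 and 14.20 at 24 h and 14.34, 14.31 and 14.41 at 6 d, and the groups overlapped. MXD4, which competes with MYC proteins for their partner MAX, rose by 0.68 (SE 0.14). Of 71 cytosolic ribosomal proteins 6 were higher and 3 lower, with a median of 0.01. With brightness as a covariate 4 of the 26 biogenesis genes were lower.

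All 18 proteasome subunits that were called, of 30 tested (60%), were lower, beside 14.6% of all genes. PSMD1, the largest scaffold of the regulatory cap, fell by 0.78, PSMC4, an ATPase of the cap, by 0.58, and PSMB3, of the core, by 0.55 (SE 0.09). The median was -0.31, and the count was 11 without DMSO 24 h replicate 1 or without DMSO 6 d replicate 1, and 6 with brightness as a covariate. Mitochondrial ribosomal proteins had 19 lower (25.3%) and 3 higher (4%) of 75, with a median of -0.18. With brightness as a covariate 12 of them were lower. Subunits of the respiratory chain and ATP synthase had 21 lower (28.8%) and 2 higher (2.74%) of 73, at a median of -0.11. Their lower count was 10 with medians as the scaling and 9 with brightness as a covariate.

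**Figure D3:**
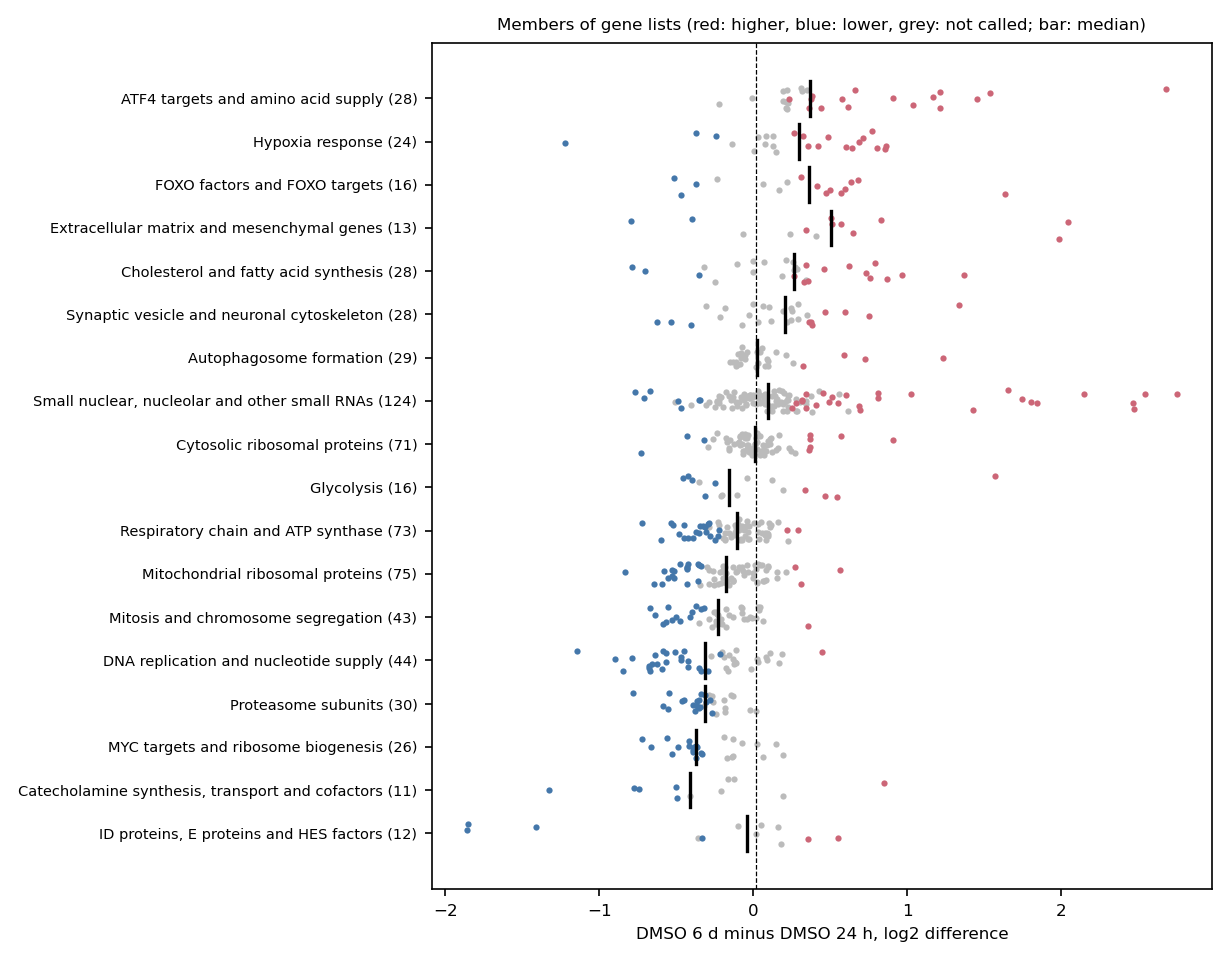
Each point is the log2 difference of 1 member of a gene list (number of tested members in parentheses), red where called higher, blue where called lower and grey where not called, with the list's median as a bar and the median of all genes as a dashed line. The medians run from 0.50 for matrix genes and 0.37 for ATF4 targets to -0.37 for ribosome biogenesis and -0.41 for catecholamine genes.

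The sympathetic program was split. Of 11 genes for catecholamine synthesis and transport 5 were lower (45.5%) and 1 higher (9.09%), beside 14.6% and 18.4% of all genes. The list's median was -0.41. DBH, which makes noradrenaline from dopamine, read 11.70, 11.44 and 11.58 at 24 h and 10.21, 9.98 and 10.56 at 6 d, and fell by 1.32 (SE 0.13, adjusted p = 1.6e-06 from limma). The noradrenaline transporter SLC6A2 fell by 0.74, from 8.37 to 8.72 at 24 h to 7.78 to 7.91 at 6 d. TH, the first enzyme of the pathway, overlapped between the groups and was at -0.41, while a second TH probe fell by 0.61. GCH1, which starts the synthesis of the TH cofactor, rose by 0.85 (SE 0.10), although PTS, the next enzyme of that cofactor pathway, fell by 0.50. GAL, the neuropeptide galanin, read 10.88, 10.22 and 10.69 at 24 h and 8.95, 8.35 and 8.93 at 6 d, and fell by 1.85 (SE 0.17), one of the largest falls. VIP, vasoactive intestinal peptide, and VGF, a secreted neuronal protein, rose by 0.77 and 0.66.

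Of 13 factors of noradrenergic identity 2 were higher and 3 lower, near the share of all genes. HAND2 rose by 0.44 (SE 0.10), while PHOX2A, at -0.02, GATA3, at -0.11, and ISL1, at 0.21, did not pass. GATA2, which acts in the same circuit, fell by 0.95 (SE 0.13), from 10.41 to 10.81 at 24 h to 9.58 to 9.82 at 6 d. HAND1 fell by 0.54. INSM1, a factor of endocrine differentiation, was detected on no 24 h array and was at least 1.52-fold higher at 6 d in the deposited values. CHGA, the granule protein chromogranin A, was at -0.11 and CHGB at 0.39, neither called. The 11 noradrenergic markers had a summed intensity of 55967 to 58148 at 24 h and 58327 to 63149 at 6 d, and 11 of 11 could be tested.

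Of 28 synaptic and cytoskeletal genes of neurons 7 were higher (25.0%) and 3 lower (10.7%), near the shares of all genes (18.4% and 14.6%). DCX, the microtubule protein of migrating neurons, read 7.33, 7.73 and 7.37 at 24 h and 8.64, 9.45 and 8.36 at 6 d, a rise of 1.34 (SE 0.20). MAPT, the microtubule protein tau, rose by 0.75 (SE 0.11), and a dimmer probe at 0.03 was not called. STMN2, which guides neurite growth, rose by 0.37 (SE 0.08), whereas its relative STMN3 fell by 0.62 and PRPH, the filament peripherin, by 0.54. GFRA2, the receptor for neurturin, fell by 1.13 (SE 0.14), from 8.38 to 8.84 to 7.32 to 7.56. The higher count was 4 with brightness as a covariate and 13 with medians as the scaling.

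ID proteins, which block bHLH factors by binding their partners, were among the largest falls. ID1 read 10.28, 10.02 and 10.20 at 24 h and 8.50, 7.69 and 8.75 at 6 d, and fell by 1.86 (SE 0.19, adjusted p = 4e-06 from limma). ID2 read 11.09, 11.13 and 11.07 at 24 h and 9.20, 8.85 and 9.68 at 6 d, and fell by 1.85 (SE 0.15), with a second probe at -2.09. ID3 fell by 1.41 (SE 0.17), from 10.99 to 11.29 to 9.16 to 10.07. In each case DMSO 6 d replicate 2 was lowest. The groups did not overlap, which the rule for the largest falls required. TCF4, an E protein that ID proteins hold back, rose by 0.55 (SE 0.13). Among immediate early factors EGR1 rose by 1.69 (SE 0.17), from 7.88 to 7.98 at 24 h to 9.14 to 10.13 at 6 d, while KLF2 fell by 1.10 (SE 0.16) and JUN by 0.49 (SE 0.10).

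Matrix genes were higher at 6 d. Of 13 tested genes of the matrix and the mesenchymal state 8 were higher (61.5%) and 2 lower (15.4%), with a median of 0.50. The shares of all genes were 18.4% and 14.6%. Some members of this list passed the detection filter through 6 d alone, and of the 10 detected on all 6 solvent arrays 6 were higher and 2 lower. DCN, the proteoglycan decorin, read 9.15, 8.95 and 9.08 at 24 h and 11.40, 11.03 and 10.88 at 6 d, a rise of 2.04 (SE 0.12, adjusted p = 1.5e-08 from limma), and further passing probes rose by 1.87 and 0.43. LUM, the related lumican, read 7.59, 7.59 and 7.18 at 24 h and 9.85, 9.36 and 9.11 at 6 d, a rise of 1.99 (SE 0.17). PDGFRB, a receptor of pericytes and fibroblasts, rose by 1.36, from 8.95 to 9.13 to 10.13 to 10.71. COL6A1, a collagen of the cell surface, rose by 0.83, but VIM, vimentin, fell by 0.40 and SNAI2, a factor of mesenchymal conversion, by 0.80. VIM lost its call without DMSO 24 h replicate 2 (-0.37) or 3 (-0.31) and without DMSO 6 d replicate 1 (-0.36).

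DCN, LUM and PDGFRB are also markers of fibroblasts, so the marker lists stand beside them. Of 10 fibroblast markers 5 were tested and these 3 were higher (60%), beside 18.4% of all genes. THY1, with 10.81 to 10.94 at 24 h and 10.84 to 10.89 at 6 d, was not called. Nor was ACTA2, with 7.76 to 7.98 at 24 h and 7.39 to 8.03 at 6 d. The summed intensity of the list, which counts the 3 higher markers, went from 3783 to 4014 at 24 h to 6124 to 7605 at 6 d. The defining collagens COL1A1 and COL1A2 were detected on none of the 6 solvent arrays, nor was PDGFRA, and COL3A1 was detected on 2 arrays of 6 d. The 7 markers of Schwann cells and glia and the 8 of endothelial cells included none that could be tested. Among glial markers SOX10, S100B, GFAP and FOXD3 were detected on 0 solvent arrays, while 1 probe each of CDH19 and ERBB3 was detected on 1 array of 24 h, and that of ERBB3 also on 1 of 6 d. CDH5 and VWF of endothelial cells and PTPRC and CD3E of blood cells were detected on 0 solvent arrays. Of the 10 blood and immune markers CD14, CD68 and HLA-DRA could be tested, and CD14 was higher, with 7.12 to 7.34 at 24 h and 7.70 to 8.05 at 6 d. The summed intensity of that list overlapped, with 1194 to 1295 at 24 h and 1259 to 1331 at 6 d. The part of these cells in the matrix genes was not tested further. In a culture, a change in the share of cells and a change in RNA per cell cannot be told apart.

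Among the autophagy genes that the study had followed by PCR, MAP1LC3A, GABARAPL1 and BNIP3L could be tested and were higher. The study reported that treatment with vorinostat or panobinostat raised these genes, whereas the cultures compared here had received only solvent. The list of the PCR genes and their factors had a median of 0.72 with solvent and of -0.15 over time with vorinostat. Whether the treatment labels of the arrays from the later time bear on these values was not tested. MAP1LC3A, a member of the LC3 family that coats autophagosomes, read 8.53, 8.57 and 8.71 at 24 h and 9.76, 10.09 and 9.65 at 6 d, a rise of 1.23 (SE 0.12, adjusted p = 1.7e-06 from limma). GABARAPL1, of the same family, read 6.97, 7.16 and 6.95 at 24 h and 7.84, 7.64 and 7.78 at 6 d, a rise of 0.73 (SE 0.10). BNIP3L rose by 0.72 (SE 0.13). SQSTM1, the cargo receptor p62, overlapped at -0.06. FOXO3, a transcription factor that the study knocked down together with FOXO1, was at 0.50 and called. FOXO3 lost the call without DMSO 24 h replicate 1 (0.48) or 3 (0.43) and without DMSO 6 d replicate 1 (0.49) or 2 (0.39). FOXO4 rose by 0.68 (SE 0.10), from 7.98 to 8.11 to 8.66 to 8.83. FOXO1 and TFEB were not detected on any of the 6 arrays, and WIPI1, which binds the forming autophagosome, was detected on 0 arrays of 24 h and 2 of 6 d.

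Beyond these members the autophagy machinery as a list was near the background. Of 29 genes for autophagosome formation 4 were higher and 0 lower (median 0.02), a smaller share than the 18.4% of all genes. Besides MAP1LC3A and GABARAPL1 these were ULK1, the starting kinase, at 0.59 (SE 0.12), and MAP1LC3B, at 0.33, which lost its call in 12 of 24 alternatives, among them those without each array of 24 h (0.31 to 0.34) and without DMSO 6 d replicate 1 (0.29) or 2 (0.23). Of 15 cargo receptors 5 were higher (33.3%) and 0 lower. These included CCPG1, a receptor for the endoplasmic reticulum, at 0.66 and OPTN, for ubiquitinated cargo, at 0.58, the latter detected on 2 of 3 arrays at 24 h. Lysosomal genes were called in both directions, with 5 higher (15.6%) and 7 lower (21.9%) of 32, near the shares of all genes (18.4% and 14.6%). Among 16 FOXO factors and targets 9 were higher (56.25%) and 3 lower (18.75%), with a median of 0.36. Of the 14 detected on all 6 solvent arrays 7 were higher. Higher members of the list included TXNIP, BCL6, a transcriptional repressor, at 0.64, and GADD45A, a growth arrest gene, at 0.60. With brightness as a covariate 4 of these 16 were higher.

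Small structured RNAs gave some of the largest differences and the widest spread. RNU4-2, a spliceosomal U4 RNA, read 8.21, 8.34 and 8.58 at 24 h and 10.81, 12.81 and 9.75 at 6 d, a rise of 2.75 (SE 0.45, adjusted p = 0.00024 from limma). RN7SK, which restrains a kinase of transcription elongation, rose by 2.47 (SE 0.38), with 9.82 to 12.35 at 6 d, and SNORD3A, a U3 RNA of ribosome assembly, by 2.47 (SE 0.34). SNORD3C and SNORD3D, and likewise RNU1-3, RNVU1-7 and RNVU1-18, are near-identical copies whose probes cannot separate them. In each of these RNAs replicate 2 of 6 d was highest and replicate 3 lowest among the 6 d arrays. Without DMSO 6 d replicate 2 the difference of RNU1-3 went from 1.75 to 1.06, that of RNVU1-7 from 1.84 to 1.22 and that of RNVU1-18 from 1.80 to 1.20. Of 124 small RNAs tested 27 were higher (21.8%) and 7 lower (5.65%), with a median of 0.10. The higher share was near the 18.4% of all genes, and the lower share was below their 14.6%. With medians as the scaling the balance turned, to 18 higher and 22 lower and a median of -0.09. Of 97 detected on all 6 solvent arrays 22 were higher and 7 lower. The higher count was 15 without DMSO 24 h replicate 1, 17 without DMSO 6 d replicate 2 and 43 without DMSO 6 d replicate 3, while 16 were lower without DMSO 6 d replicate 2 and 4 without DMSO 6 d replicate 1. Summed intensity of all 329 small RNAs named on the array overlapped, with 61589 to 69683 at 24 h and 65301 to 113611 at 6 d (exact permutation p = 0.2, two-sided). SNORA26 and SNORD96A, which guide the modification of ribosomal RNA, fell by 0.77 and 0.71.

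Several of the largest differences lay outside these groups. TMEM119, a membrane protein known from microglia and bone, read 7.28, 7.62 and 7.35 at 24 h and 9.81, 10.45 and 9.42 at 6 d, a rise of 2.47 (SE 0.18). CRABP2, which carries retinoic acid to its receptors, read 7.39, 7.54 and 8.27 at 24 h and 10.11, 10.44 and 9.98 at 6 d, a rise of 2.44 (SE 0.18). KLF9, a factor that responds to steroid and thyroid hormones, rose by 1.82 (SE 0.11), and HBQ1, the theta globin, by 1.70 (SE 0.14). Among the falls SNRNP25, a protein of the minor spliceosome, read 12.03, 11.60 and 11.73 at 24 h and 10.22, 10.15 and 10.93 at 6 d, and fell by 1.35 (SE 0.16). TP53I3, an oxidoreductase named as a p53 target, fell by 1.35, DOK4, a docking protein of receptor kinases, by 1.33, LRRN3, a neuronal membrane protein, by 1.27, TIMP1, an inhibitor of matrix proteases, by 1.25 and RBM3, an RNA-binding protein induced by cold, by 1.23. GTF3C6, a subunit of the factor that starts transcription by RNA polymerase III, fell by 1.18 (SE 0.12). The rule that named the largest rises and falls required that the groups did not overlap. For some called genes named above another probe did not pass the test. These were CCPG1 (0.16), CDKN1B (-0.19), FOXO3 (0.25), PCNA (-0.20), PKM (-0.42) and VIM (-0.34).

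Genes detected on all arrays of one time and none of the other have only a lower bound, given here for the deposited values. They passed the filter only through the time at which they were high, so their calls are no separate support. On each dim array the gene was given the weakest signal that still counted as detected, or its own reading if this exceeded it. There were 157 such called genes higher at 6 d and 13 higher at 24 h, in a comparison where the 6 d arrays had more detected probes. VASH1, an inhibitor of vessel growth, was at least 2.53-fold higher at 6 d (adjusted p = 1.3e-06 from limma). C7, a complement protein, was at least 2.48-fold higher, IL12A, a cytokine subunit, at least 2.34-fold higher, and DPT, the matrix protein dermatopontin, at least 2.22-fold higher. At 24 h HAMP, the iron hormone hepcidin, was at least 1.77-fold higher and SCGN, a calcium sensor of endocrine cells, at least 1.39-fold higher. The bounds did not hold under every alternative. The lowest log2 difference of VASH1 was 1.03, below its bound of 1.34, and that of C7 was 0.97, below 1.31. IL12A and DPT also went below their bounds, at 0.90 and 0.83, as did HAMP, with a fall of 0.69 against a bound of 0.82. SCGN went to a fall of 0.44 against a bound of 0.48. EPAS1 and INSM1, given above with bounds, went to 0.52 against 0.83 and to 0.35 against 0.60.

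The time differences with solvent were set against those with vorinostat, which rest on other arrays, although both 6 d groups shared a BeadChip. The 24 h groups lay on separate BeadChips. With vorinostat too, time and BeadChip therefore cannot be told apart, and the difference of the time differences holds any difference between the 24 h BeadChips. The fit tested the difference of the time differences, and 3074 genes (32.3% of 9508) were called. Of the 1752 genes higher with solvent 1197 were among them, as were 829 of the 1391 lower ones. With vorinostat, 109 of the 1752 were called higher and 423 lower, and 32.9% had a positive difference. Of the 1391 lower genes 217 were called higher and 133 lower with vorinostat, and 60.7% had a positive difference, beside 44.5% of all genes. These genes were chosen by the solvent values, which enter the difference. DOK4 fell by 1.26 with vorinostat as it had by 1.33 with solvent, and DCN rose in both, by 1.39 and 2.04, with a difference of the 2 that passed the test (adjusted p = 0.011 from limma). LUM, TMEM119 and DCX rose with solvent and were lower at 6 d with vorinostat, at -0.98, -0.97 and -1.33. GTF3C6 fell with solvent and had a difference of 1.14 with vorinostat. GATA2 was alike at -0.95 and -0.91, and SCD at 0.76 and 0.68, where the test of the difference did not pass.

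**Figure D4:**
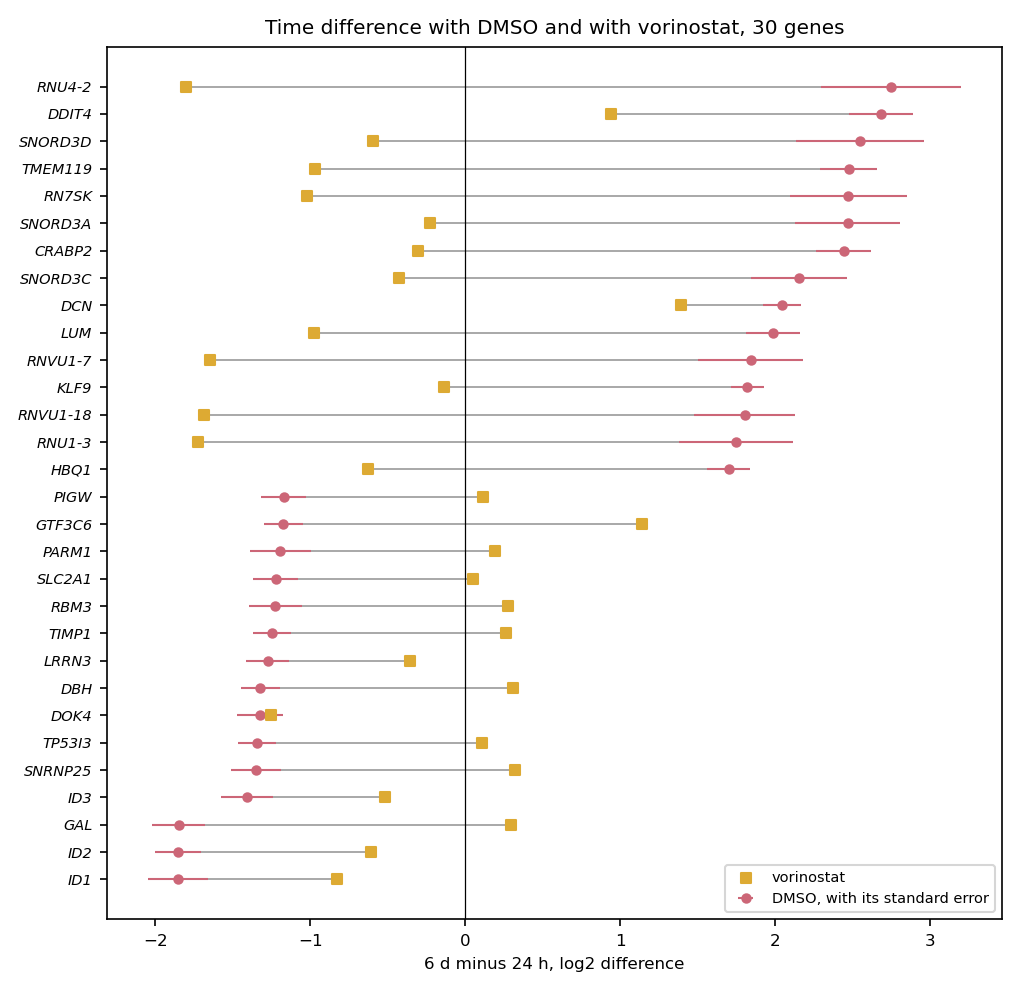
For the 15 genes with the largest rise and the 15 with the largest fall in solvent cultures, the x axis gives the log2 difference 6 d minus 24 h with DMSO (circles, with SE) and with vorinostat (squares). The 24 h arrays of DMSO and of vorinostat lay on separate BeadChips. With DOK4 as the exception, the circle and the square differed by a test of the difference at an adjusted p under 0.05, and 13 of the 15 rises have a square below 0.

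Within the BeadChip of 6 d the solvent arrays can be set against the vorinostat arrays without a change of chip, though these values share the DMSO 6 d arrays with the comparison above. DDIT4 was 2.09 higher on the solvent arrays than on the vorinostat arrays, DDIT3 1.49 higher, TXNIP 1.31 higher and KLF9 1.26 higher. ID2 was lower by 1.45 and DBH by 1.13, each at an adjusted p under 0.05 from limma. DCN differed by 0.03, SCD by 0.24 and HIF1A by 0.03 on this chip, none of which passed.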

How the data were processed

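RNA of 11 samples was hybridised to HT-12 v4 BeadChips. The authors deposited intensities that they had normalized in BeadStudio (by a method not given in the sources used here), without background subtraction as far as the values show, and non-normalized intensities with a detection p-value for each probe. The deposited detection p-value served as a filter only. Both tables were paired by their values, mutually for 48107 of 48107 probes and for 2.66% after shuffling. Of these, 30113 probes had 1 gene, 8 several and 17986 none.

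Groups came from the treatment labels. A probe was kept where it was detected (p under 0.01) on all arrays of at least 1 solvent group, and the brightest of 12314 passing probes stood for each of 9508 genes. Normalized intensities were put on the log2 scale and fitted in limma (lmFit and eBayes with trend) with 11 arrays in 4 groups, and p-values were adjusted by Benjamini-Hochberg at 0.05. The text draws its genes from a set of the 15 largest rises and falls without overlap, the 6 largest lower bounds each way, up to 6 called members each way of each list, members whose role the account needs, and the genes tied to the study's PCR and the noradrenergic markers, of which it prints a part. The members of the comparison and the gene lists were chosen with earlier results of these data known. Tested on simulated data of 9508 genes, the fit for this comparison recovered 9.6% of changes of 0.25 on the log2 scale, 68.8% of 0.5, 99.6% of 1 and 100% of 2, with 3.74% of calls false. Alternatives covered scaling, background, filters, probe choice, arrays fitted, a replicate block, array weights, brightness, the methods' t-test, a stricter threshold and each array left out. R 4.3.3, limma 3.58.1, Python 3.11.15, NumPy 2.4.6, SciPy 1.17.1, pandas 2.3.3 and Matplotlib 3.10.9 were used.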

Additional observations from a re-analysis of the deposited data

Results flagged for a closer look

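For 29 of the 30 largest rises and falls, the time difference with solvent differed from that with vorinostat by limma's test of the difference itself. The values here are the solvent difference minus the vorinostat difference, on the log2 scale, with adjusted p from 3.4e-07 for TMEM119 to 0.012 for ID1. The genes were chosen by their solvent values, which enter the difference, and no explanation was tested. The 24 h groups lay on separate BeadChips, so drug and BeadChip cannot be told apart in these values.

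Among small RNAs the value was 4.55 for RNU4-2, 3.50 for RN7SK, 3.49 for RNVU1-7, 3.49 for RNVU1-18, 3.48 for RNU1-3, 3.14 for SNORD3D, 2.69 for SNORD3A and 2.58 for SNORD3C. Among the other rises it was 3.44 for TMEM119, 2.96 for LUM, 2.75 for CRABP2, 2.33 for HBQ1, 1.96 for KLF9, 1.74 for DDIT4 and 0.65 for DCN. Among the falls it was -2.32 for GTF3C6, -2.14 for GAL, -1.67 for SNRNP25, -1.63 for DBH, -1.51 for TIMP1, -1.50 for RBM3, -1.46 for TP53I3 and -1.39 for PARM1. It was -1.29 for PIGW, -1.28 for SLC2A1, -1.25 for ID2, -1.03 for ID1, -0.92 for LRRN3 and -0.89 for ID3.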

How the results depend on the processing

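Of 1752 genes higher and 1391 lower, 876 and 630 were called with array brightness as a covariate, 1076 and 768 at an adjusted p under 0.01, and 376 and 249 with the methods' t-test after Benjamini-Hochberg adjustment (1681 and 1389 at its unadjusted threshold). With each solvent array left out in turn, 1353 to 1811 genes were higher and 993 to 1456 lower. With non-normalized intensities centred on medians, 42.8% of calls were higher, against 55.7%. With a replicate block the counts were 1947 and 1585 over all arrays, or 1473 and 1050 over the 6 solvent arrays. The replicate numbers did not pair the arrays, since deviations of same-numbered arrays had an r of -0.07, -0.04 and 0.06 and not every array correlated best with its own number. Of 286 called genes in the set from which the named genes were drawn, 56 kept direction and call under all 24 alternatives, 230 lost the call in at least 1, and 1 (EPCAM) turned direction. The cause of these changes was not tested. The number of arrays and signal near background limit what dim genes can show.

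EPCAM was at -0.0707 with medians as the scaling, where MYCN was at -0.00547, PHOX2A at 0.0717 and SQSTM1 at 0.0139. PHOX2A was at 0.0101 with neqc and at 0.0104 with quantile normalization. With brightness as a covariate CHGA was at 0.0663, GATA3 at 0.0463, SQSTM1 at 0.130 and TOP2A at -0.00521. PGK1 was at -0.127 with the mean of its probes. With solvent arrays left out in turn, CDK1 ranged from -0.342 to 0.0143, FBL from -0.0578 to 0.154, HSPA5 from -0.00286 to 0.0592, PHOX2A from -0.0860 to 0.0592, SQSTM1 from -0.146 to 0.0512 and TOP2A from -0.0433 to 0.162.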
